A study of Mus musculus with 5 samples.

Results

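The kinesins are motor proteins that walk along, or take apart, microtubules. Gene expression of this family was measured in lung cells of FOXJ1-GFP mouse embryos at E17.5, sorted as GFP+. The series holds 5 Affymetrix arrays, all of this 1 group, with 1 biological replicate on each. FOXJ1-GFP mice carry a GFP reporter that marks multiciliated cells, and they were mated with the outbred ICR strain. Every replicate shared the genotype, the stage and the sort, so the arrays allow no comparison between conditions. Whether embryos were pooled, and whether the replicates came from different litters, is not stated, so a p-value covers the spread between these 5 samples only, and that spread may be technical. The members were all genes whose symbol begins with Kif and a digit and that have a probe set annotated to them alone, apart from Kif3a, Kif3b and Kif7. They numbered 34 of the 18193 named genes on the array. Each gene was represented by the brightest of its probe sets on average, and Kif19a, a kinesin that shortens cilia, is not analysed here.

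Kinesins share a motor domain that burns ATP, and differ in the tail that binds cargo or other proteins. Mitotic kinesins build the spindle, move chromosomes and finish cell division, and are made mostly by dividing cells. Ciliary kinesins act in the axoneme, at the ciliary tip or at the centriole, while transport kinesins carry vesicles, organelles and messenger RNA through the cytoplasm. Multiciliated cells of the airway no longer divide, yet they form many centrioles and motile cilia. The 34 genes were therefore sorted by role into 12 mitotic, 5 ciliary and 10 transport kinesins and 7 others. Before the values, the promoters of some of these genes are shown.

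Promoter windows of the mitotic kinesins often held the letters of the cell cycle homology region, an element known from genes that are switched on late in the cell cycle. Windows of 300 bases, from 250 before to 50 after a RefSeq transcription start (GRCm38.p6), were found for 28 of the 34 genes, some of which had more than 1 window. The letters TTTGAA, on either strand, stood in 9 of the 11 windows of mitotic kinesins (81.8%), beside 17.9% of all 32851 windows. They stood in 1 of 6 windows of ciliary kinesins, in 1 of 9 windows of transport kinesins and in 1 of 6 of the others. The mitotic genes with them were Kif2c, Kif4, Kif11, Kif14, Kif15, Kif18b, Kif20b, Kif22 and Kif23, and those without were Kif2b and Kif18a. The letters CCAAT, the box bound by NF-Y, stood in 7 of the 11 mitotic windows (63.6%), beside 37.4% of all windows. In the 3 stretches of 100 bases that end just before the start of Kif11 (chr19:37376282-37376381, + strand), Kif22 (chr7:127042421-127042520, - strand) and Kif15 (chr9:122950981-122951080, + strand), capitals mark both elements on either strand. They were chosen because letters of the homology region lie within 20 bases of the start in each of them.
Kif11: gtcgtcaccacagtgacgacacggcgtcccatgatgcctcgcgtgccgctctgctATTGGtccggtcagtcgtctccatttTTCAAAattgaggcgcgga
Kif22: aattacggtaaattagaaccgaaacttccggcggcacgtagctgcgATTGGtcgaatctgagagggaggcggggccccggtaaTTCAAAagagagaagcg
Kif15: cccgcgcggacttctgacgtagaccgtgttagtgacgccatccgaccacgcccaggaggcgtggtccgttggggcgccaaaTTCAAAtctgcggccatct

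Windows of the ciliary kinesins held another element, 1 arm of the X-box. The X-box is the sequence bound by RFX factors, which switch on many genes of the cilium. The arm GTTGCC, on either strand, stood in 4 of the 6 windows of ciliary kinesins (66.7%), beside 12.5% of all windows. These 4 windows belong to 3 genes, Kif9, Kif17 and Kif24, and both windows of Kif9 overlap and hold the same match. The arm stood in 2 of 11 mitotic, 3 of 9 transport and 1 of 6 other windows. In kinesin windows, none of the 3 kinds of element overlapped another kind. In the stretches before the start of Kif9 (chr9:110476894-110476993, + strand), Kif17 (chr4:138262151-138262250, + strand) and Kif24 (chr4:41464849-41464948, - strand), capitals mark the arm alone. They are shown because each holds the arm within 100 bases of the start.
Kif9: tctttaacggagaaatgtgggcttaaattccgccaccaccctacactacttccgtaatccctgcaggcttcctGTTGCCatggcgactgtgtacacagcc
Kif17: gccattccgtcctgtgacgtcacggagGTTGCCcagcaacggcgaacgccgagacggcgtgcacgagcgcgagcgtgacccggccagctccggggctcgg
Kif24: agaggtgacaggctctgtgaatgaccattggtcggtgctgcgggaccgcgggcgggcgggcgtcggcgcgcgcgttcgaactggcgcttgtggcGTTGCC
A match of letters is not a binding site, and Kif6 and Kif27, ciliary kinesins as well, had none of this arm in their windows.

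**Figure D1:**
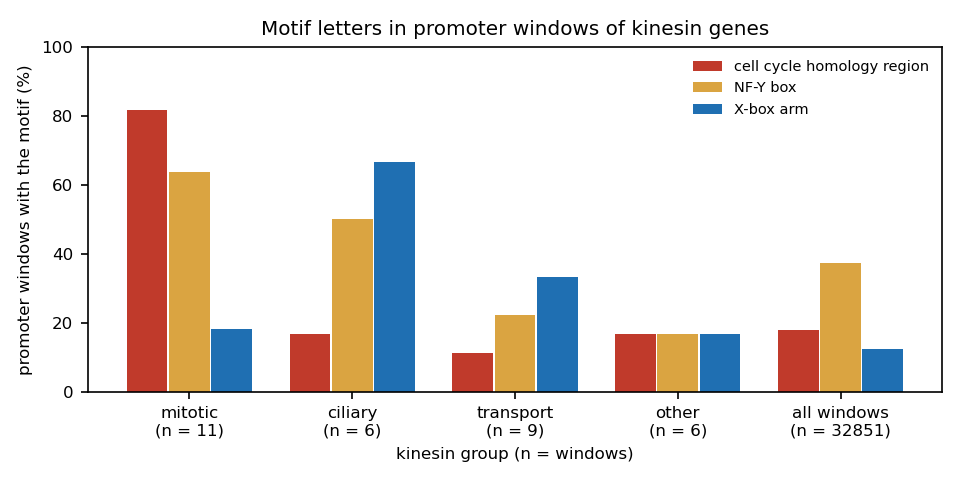
Share of promoter windows (vertical axis, percent) that hold the letters of an element on either strand, by kinesin group. The elements are the cell cycle homology region, the NF-Y box and the X-box arm. The number of windows stands under each group. Letters of the homology region stand in 81.8% of 11 mitotic windows against 17.9% of all windows. Letters of the X-box arm stand in 66.7% of 6 ciliary windows against 12.5%.

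The authors deposited 1 normalised log2 value per probe set and array. The values ran from 2.37 to 15.24, and pairs of arrays correlated with Pearson's r between 0.987 and 0.994 over the probe sets, which do not count as replicates. A gene was called above background when its mean exceeded 7.36 with an adjusted p under 0.05 in a one-sided limma test over all 45037 probe sets. To set this level, 141 genes not thought to be used by ciliated cells of the lung were taken, and 95% of their means lie below it. They were 77 chemosensory receptors and 64 genes restricted to other tissues. Of these 141 genes, 7 were themselves called. The brightness of a probe set depends on its sequence too, so no gene is ranked above another by its level. Of 16 marker genes of ciliated cells, 15 were above background, the exception being Spag6 at 3.67 ± 0.13 (SD, n = 5 arrays). All 15 marker genes of dividing cells were above background, and so were all measured markers of alveolar type 2, club, endothelial, mesenchymal and neuroendocrine cells and 8 of 9 of white blood cells. Of all 18193 genes, 62.8% were above background.

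Most kinesin genes were detected in the sorted E17.5 cells. Of the 34 genes, 25 (73.5%) were above background, beside 62.8% of all genes. Of the 5 ciliary kinesins all 5 were above background, of the 10 transport kinesins 8, of the 12 mitotic kinesins 8 and of the 7 others 4. The median distance of the mean from the background level was 4.52 on the log2 scale for the ciliary, 2.70 for the transport and 1.22 for the mitotic kinesins, beside 1.71 for all genes. These medians join probe sets of unequal brightness, and the number of probe sets to choose from differed between genes, from 1 for Kif14 to 7 for Kif1b, so they do not rank the groups. Above a level of 5 on the log2 scale were 30 of the 34 genes (88.2%), beside 81.3% of all genes. The study set a cut-off of the same size on an average in its comparison with another stage, together with one on fold change, so it is not the same quantity as the E17.5 mean used here. The 4 genes that did not pass the level of 5 were Kif2b, Kif14 and Kif15 of the mitotic group and Kif28. Groups of so few genes were not tested against each other. With the level raised to the 99th percentile of the same genes, 10.32, the counts were 4 of 5 ciliary, 5 of 10 transport, 1 of 12 mitotic and 2 of 7 other kinesins, beside 30.8% of all genes.

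**Figure D2:**
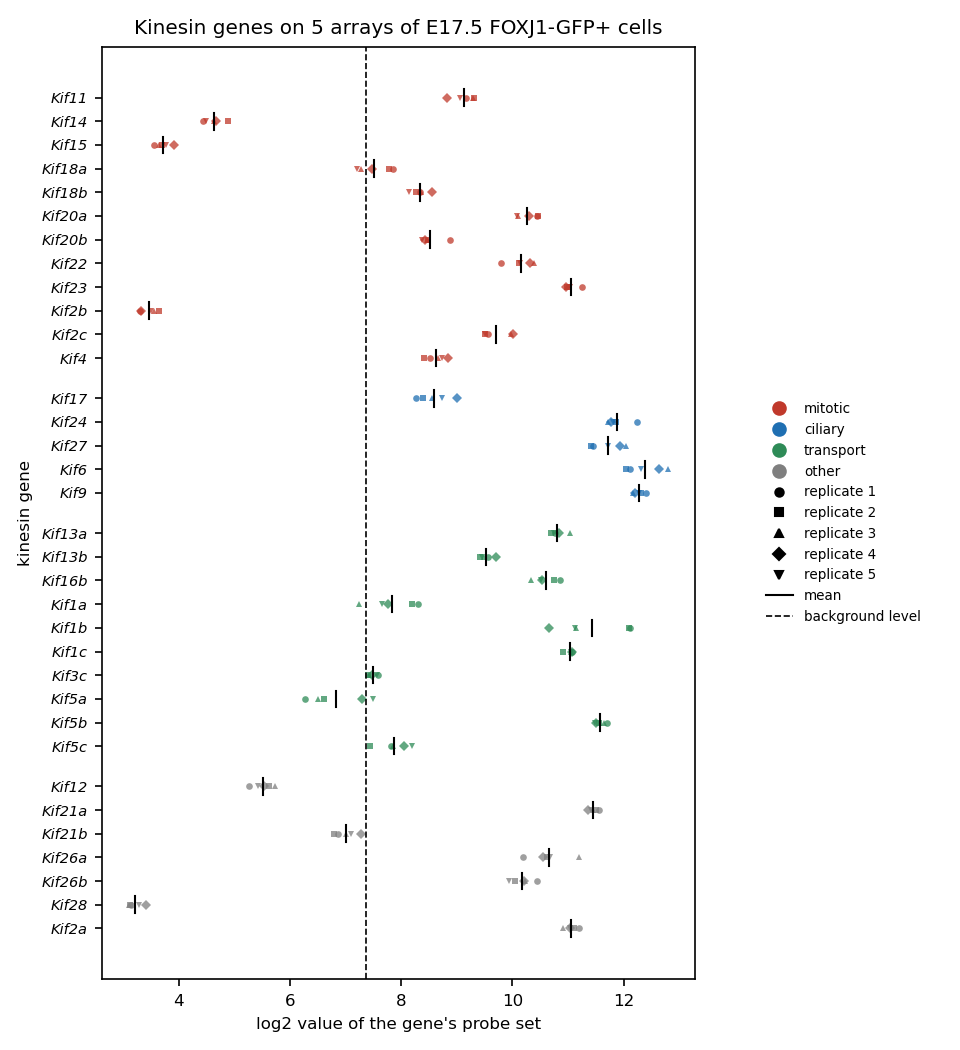
Log2 value of the probe set of each of the 34 kinesin genes (horizontal axis) on the 5 arrays; colours give the group, symbols the replicate, black bars the mean and the dashed line the background level of 7.36. All 5 ciliary kinesins lie right of the line on every array, while Kif2b, Kif14, Kif15, Kif12, Kif21b and Kif28 lie left of it on every array.

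All 5 kinesins of the cilium were above the background level on all 5 arrays, Kif17 by the least, with a mean 1.23 over it. With tissue-restricted genes alone as background Kif17 was below the level (-0.28). Kif9, which is needed for the beat of motile cilia and sperm tails, had log2 values of 12.40, 12.32, 12.17, 12.21 and 12.28 in replicates 1 to 5. Its mean was 12.27 ± 0.09 (SD, n = 5), which lies 4.91 over background (adjusted p = 9.92e-11, limma), and 81.9% of the genes above background had a larger SD. Kif6, which acts in the motile cilia of the brain ventricles, had values of 12.12, 12.05, 12.79, 12.64 and 12.32. It averaged 12.38 ± 0.32, or 5.02 over background (adjusted p = 2.19e-09, limma), and 9.75% of the genes above background had a larger SD. That distance rests on 1 probe set, whose name carries a suffix. With the probe sets of Kif6 averaged, the distance was 3.10 over that setting's lower level of 6.92. Without probe sets that carry a suffix it was 0.69 over that setting's lower level of 6.97 (adjusted p = 0.000945, limma). The latter value comes from the other probe set of Kif6. Against the background level used elsewhere, that probe set lay 0.29 over it and missed the test (adjusted p = 0.0556, limma). Kif27, a relative of Kif7 that is needed for motile cilia and binds the kinase Stk36, had values of 11.44, 11.41, 12.04, 11.94 and 11.72. Kif27 averaged 11.71 ± 0.29, or 4.35 over background (adjusted p = 2.99e-09, limma). Kif6 and Kif27 thus ordered the 5 arrays alike, with replicate 2 lowest, replicate 1 next and replicate 3 highest. Stk36 itself was at 12.28 ± 0.16.

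Kif24 and Kif17 were measured by several probe sets each, which did not all move alike. Kif24, a kinesin of the centriole that holds back the growth of a cilium, had values of 12.24, 11.87, 11.71, 11.77 and 11.81, with a mean of 11.88 ± 0.21 (adjusted p = 7.09e-10, limma). Replicate 1 was the highest and replicate 3 the lowest for this probe set. Another probe set of Kif24, at 8.11 ± 0.38 and also above background, ran the other way, with 7.63 in replicate 1 and 8.64 in replicate 3. The third, at 6.06 ± 0.30, was not above background. Kif17, a motor of the kinesin-2 class that takes cargo into some cilia and into dendrites, had values of 8.26, 8.40, 8.55, 9.00 and 8.73, with a mean of 8.59 ± 0.29 (adjusted p = 1.16e-05, limma). The name of the probe set that gave these values carries a suffix. The second probe set of Kif17, without a suffix, was above background at 8.45 ± 0.23 and the third was not, at 6.23 ± 0.29. For the ciliary group, the mean deviation from the gene means was -0.08, -0.16, 0.08, 0.14 and 0.01 in replicates 1 to 5, a range of 0.30. The 16 markers of ciliated cells spanned 0.05 in the same measure. The median SD was 0.29 for the 5 ciliary kinesins and 0.10 for the ciliated markers, beside 0.16 for all genes above background.

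Of the mitotic kinesins, 8 of 12 (66.7%) were above background, a share near the 62.8% of all genes. With tissue-restricted genes alone as background, 5 of 12 were above the level, beside 49.5% of all genes. Kif23, which with Racgap1 forms the centralspindlin complex of the dividing cell's midzone, had values of 11.26, 10.99, 10.98, 10.97 and 11.04 and a mean of 11.05 ± 0.12 (adjusted p = 5.12e-10, limma). Replicate 1 stood above the other 4 arrays on this probe set. Another probe set of Kif23 was above background at 8.71 ± 0.26, and a further one was not, at 3.60 ± 0.33. With probe sets averaged Kif23 lay 0.86 over that setting's level, against 3.69 for the probe set used. Kif20a, a kinesin of cytokinesis, had values of 10.44, 10.46, 10.10, 10.29 and 10.08 and a mean of 10.27 ± 0.18. Kif22, which pushes chromosome arms away from the spindle pole, had values of 9.79, 10.12, 10.39, 10.32 and 10.14 and a mean of 10.15 ± 0.24. Of the genes called with several probe sets, Kif22 was the 1 with all of them, 3 in number, above background. The name of the one used carries a suffix, and the one without a suffix was at 9.41 ± 0.15. In RNA of sorted cells in bulk, fewer cells of a type and less RNA per cell cannot be told apart.

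Kif2c, which takes apart microtubules at the kinetochore, had values of 9.57, 9.51, 9.97, 10.01 and 9.50 and a mean of 9.71 ± 0.25. Replicates 3 and 4 were higher than the other 3. The probe set that gave these values carries a suffix for probes that may also match other genes, and a Kif2c probe set without a suffix was at 8.37 ± 0.16. Kif11, which pushes the spindle poles apart, had values of 9.16, 9.31, 9.30, 8.83 and 9.06 and a mean of 9.13 ± 0.20. Its 2 other probe sets, at 7.49 ± 0.19 and 7.37 ± 0.15, were not above background. Kif4, a chromosome-bound kinesin that works with Prc1, had values of 8.51, 8.41, 8.66, 8.85 and 8.74 and a mean of 8.63 ± 0.18. Kif20b, another kinesin of cytokinesis, had values of 8.87, 8.49, 8.46, 8.42 and 8.38 and a mean of 8.52 ± 0.20. Replicate 1 was above the rest on this probe set. Of its 4 probe sets 2 were above background and 2 lay near the bottom of the scale, at 3.51 and 3.29, so that the mean of all 4 was below background. Kif18b, which shortens microtubules of the spindle, had values of 8.33, 8.27, 8.35, 8.55 and 8.14 and a mean of 8.33 ± 0.15. The adjusted p of these 5 genes lay between 8.46e-08 for Kif2c and 3.91e-06 for Kif18b (limma).

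The other 4 mitotic kinesins were not above background. Kif18a, which dampens the movement of chromosomes, had values of 7.85, 7.79, 7.27, 7.48 and 7.20, of which 3 lay above the background level. Its mean of 7.52 ± 0.30 was 0.16 over the level and missed the test (adjusted p = 0.217, limma). Kif18a passed it without probe sets that carry a suffix (0.55, adjusted p = 0.00178) and with receptor genes alone as background (2.09, adjusted p = 2.64e-07, both limma). Its probe set stayed the same in both settings, and only the level fell, to 6.97 and 5.43. Kif14, a kinesin of cytokinesis, had values of 4.44, 4.89, 4.64, 4.67 and 4.50. Kif15, which can stand in for Kif11 in the spindle, had values of 3.56, 3.70, 3.65, 3.92 and 3.77. Kif2b, a relative of Kif2c, had values of 3.30, 3.65, 3.56, 3.32 and 3.51. These last 3 genes have 1 probe set each, and none of their values reached 5. The promoter windows of Kif14 and Kif15 hold the letters TTTGAA on either strand, as do 17.9% of all windows. In Kif14 these letters begin 228 bases before the start.

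Partners of the mitotic kinesins were above background throughout. The list held 19 genes of the spindle, the kinetochore and the midzone. Of these, 18 were measured and all 18 were above background, beside 62.8% of all genes. Tpx2, which binds Kif11 on spindle microtubules, was at 10.48 ± 0.11, Prc1 at 11.54 ± 0.09, Racgap1 at 9.79 ± 0.07 and Ect2, which acts downstream of Racgap1 in cytokinesis, at 11.96 ± 0.08. Hmmr, which binds Kif15, was at 9.10 ± 0.17. The mean deviation of the 12 mitotic kinesins spanned 0.13 over the 5 arrays, lying between -0.09 in replicate 5 and 0.04 in replicates 2 and 4. For the 8 of them above background it spanned 0.14, from -0.09 in replicate 5 to 0.05 in replicates 3 and 4, with -0.03 in replicate 2. The deviation of the 15 markers of dividing cells spanned 0.28, from -0.18 in replicate 1 to 0.10 in replicate 3. Endothelial markers spanned 0.95 and white blood cell markers 1.01, in each case with replicate 1 lowest, at -0.53 and -0.57. Alveolar type 2 markers spanned 1.15 and mesenchymal markers 0.55, again with replicate 1 lowest, at -0.58 and -0.25. All 4 cell types can divide in the fetal lung, and their part in the levels of the mitotic kinesins was not tested.

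**Figure D3:**
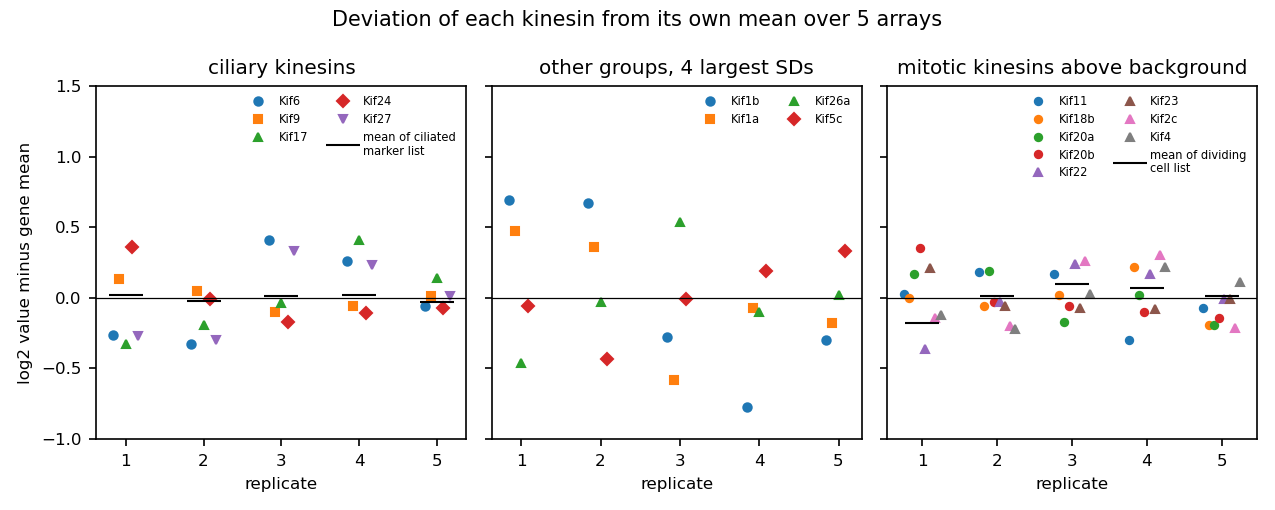
Deviation of single kinesins from their own mean over the 5 arrays (vertical axis, log2), by replicate, for the 5 ciliary kinesins, the 4 kinesins outside the ciliary and mitotic groups with the largest SD above background, and the 8 mitotic kinesins above background. Black bars give the mean deviation of the ciliated and dividing cell marker lists. Kif1b is high in replicates 1 and 2 and spans 1.46, whereas Kif6 and Kif27 are low there and span 0.73 and 0.63.

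Transport kinesins included the most variable gene of the family. Kif1b, which carries mitochondria and synaptic vesicle precursors, had values of 12.12, 12.10, 11.15, 10.66 and 11.13 and a mean of 11.43 ± 0.65 (adjusted p = 4.29e-07, limma). Replicates 1 and 2 lay about 1 log2 unit or more above the other 3, and 0.429% of the genes above background had a larger SD. Of the 7 probe sets of Kif1b, 4 were above background, and on each of these replicates 1 and 2 were the highest arrays. Their ranges differed, however, since the probe set at 9.87 ± 0.15 ran from 9.67 to 10.09. The 3′ minus 5′ difference of the Gapdh control probe sets, a sign of RNA integrity and labelling, was 1.02 and 1.03 in replicates 1 and 2 and 1.43, 1.25 and 1.14 in replicates 3, 4 and 5. For beta-actin it was 0.61, 0.51, 0.68, 0.72 and 0.67. The part of RNA integrity in the levels of Kif1b, Kif6 and Kif27 was not tested.

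The conventional kinesins, the Kif5 genes, differed in whether they were detected. Kif5b, the form found in most tissues, was above background at 11.58 ± 0.09, with values between 11.49 and 11.70, and 5 of its 6 probe sets were above background. Kif5c, a form of neurons, had values of 7.81, 7.44, 7.86, 8.06 and 8.20 and a mean of 7.87 ± 0.29, or 0.51 over background (adjusted p = 0.00261, limma). That call was lost without replicate 3 (adjusted p = 0.0782) or replicate 5 (adjusted p = 0.0741, both limma). The background level moves with the arrays too, and was 7.59 without replicate 3 and 7.54 without replicate 5, against 7.36 with all 5. Kif5a, the other form of neurons, was not above background at 6.83 ± 0.53, with values between 6.27 in replicate 1 and 7.49 in replicate 5. Of 4 probe sets of Kif5c 1 was above background, and of 3 of Kif5a none was.

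Among the kinesin-3 genes, Kif1c, which carries vesicles and messenger RNA to the cell edge, was at 11.03 ± 0.07. Kif13a, which moves endosomes, was at 10.81 ± 0.13, Kif13b, a partner of the polarity protein Dlg1, at 9.53 ± 0.12 and Kif16b, a motor of early endosomes, at 10.60 ± 0.21. All 4 passed the limma test, with adjusted p between 2.74e-10 for Kif1c and 1.02e-08 for Kif13b. The probe set used for Kif16b carries a suffix, and another without one was above background at 9.89 ± 0.35. Kif1a, a carrier of synaptic vesicle precursors, had values of 8.30, 8.19, 7.25, 7.76 and 7.65. With a mean of 7.83 ± 0.43, Kif1a lay 0.47 over background (adjusted p = 0.0188, limma), with replicate 3 below the level, and the call was lost without replicate 5 (0.34 over that setting's level, adjusted p = 0.119, limma). Kif3c, a kinesin-2 motor, had values of 7.59, 7.40, 7.43, 7.47 and 7.56. All 5 lay just over the level, by 0.13 in the mean of 7.49 ± 0.08, and missed the test (adjusted p = 0.0787, limma). Without replicate 1, 2 or 4 Kif3c passed it (adjusted p = 0.00876, 0.047 and 0.0255, limma), as the background level moves with the arrays too.

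Of the 7 kinesins in none of these groups, 4 (57.1%) were above background, beside 62.8% of all genes. Kif2a, which takes apart microtubule ends in both resting and dividing cells, was at 11.06 ± 0.11, and Kif21a, which slows the growth of microtubules, was at 11.45 ± 0.08. Kif26a, a kinesin without motor activity that acts in the enteric nervous system, had values of 10.19, 10.62, 11.19, 10.55 and 10.67, with replicate 1 lowest and replicate 3 highest. Its mean was 10.65 ± 0.36, and 6.48% of the genes above background had a larger SD. Kif26b, its relative, which is needed for kidney development, was at 10.18 ± 0.19. Endothelial markers also had their lowest deviation in replicate 1 (-0.53) and their highest in replicate 3 (0.42), as did mesenchymal markers (-0.25 and 0.30). Their part in the level of Kif26a was not tested. Kif21b, with values of 6.87, 6.79, 7.01, 7.27 and 7.10, was 0.35 below the level (-0.35), with no array above it. Kif12 at 5.52 ± 0.18 and Kif28 at 3.21 ± 0.13 were not above background.

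Probe sets of 1 gene often fell on both sides of the background level. The 34 genes had 90 probe sets of their own, of which 45 were above background. The share over all probe sets was not computed. Of the 23 genes with several probe sets, 18 were called by the highest of them, and 13 of these had at least 2 probe sets above background. These counts were not computed for other genes either, so they do not set the kinesins apart from them. The genes called by 1 of several probe sets were Kif11, Kif6, Kif13b, Kif1a and Kif5c. For Kif6 the second probe set, at 7.66 ± 0.34, missed the test (adjusted p = 0.0556, limma). When each gene was given the mean of its probe sets, 23 of 34 genes were above that setting's background, beside 59.6% of all genes. Kif13b, Kif20b and Kif5c were no longer among them, at -0.64, -1.04 and -1.19 from the level, while Kif3c now was, at 0.31.

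**Figure D4:**
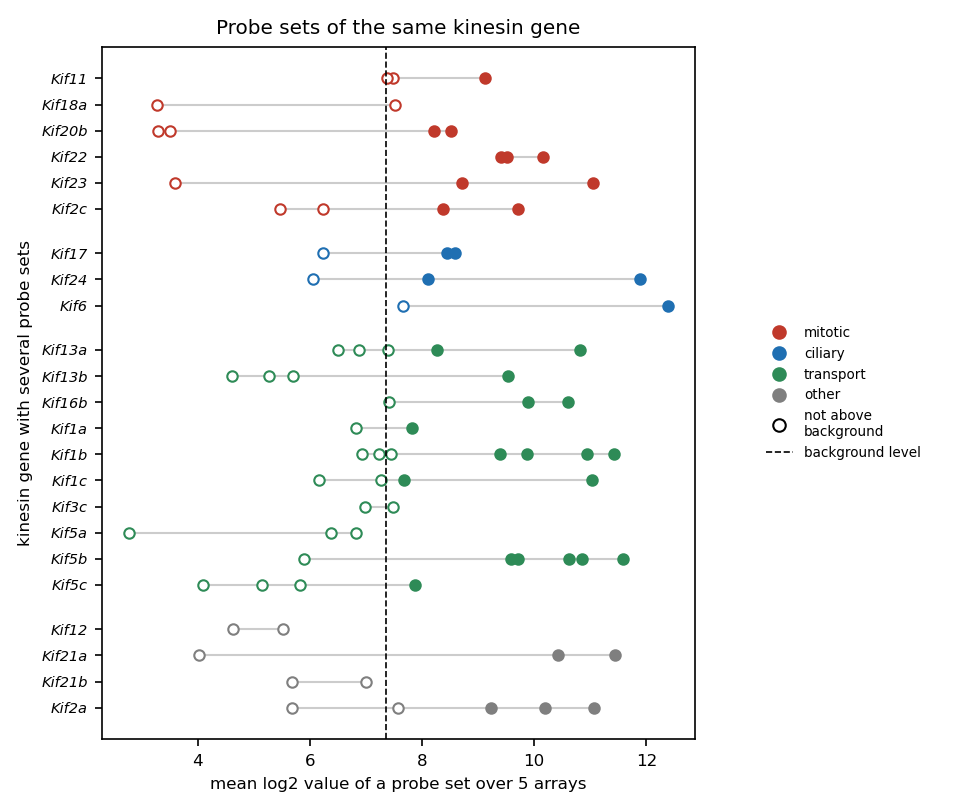
Mean log2 value over the 5 arrays (horizontal axis) of every probe set of the 23 kinesin genes with several; filled circles are above background by the limma test, open circles are not, and the dashed line is the background level of 7.36. Every probe set of Kif22 is above background, while Kif6 has 1 of 2 and Kif1b 4 of 7.

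Other parts of the kinesin machinery were mostly above background as well. The list held 16 genes for light chains, cargo adaptors and kinesins under other names. Of these, 15 were measured and 13 were above background, beside 62.8% of all genes. The light chains Klc1, Klc3 and Klc4, which link Kif5 heavy chains to cargo, were at 9.76 ± 0.25, 10.08 ± 0.12 and 10.04 ± 0.10. Kifap3, the non-motor subunit of kinesin-2, was at 12.84 ± 0.12. Trak1, an adaptor that couples Kif5 motors to mitochondria, was at 12.74 ± 0.12, while its relative Trak2, at 7.29 ± 0.15, and the scaffold Mapk8ip2, at 7.08 ± 0.21, were not above background. Kinesins of the mitotic spindle with other names were above background, with Kifc1 at 9.69 ± 0.15 and Cenpe, which moves chromosomes to the equator, at 9.64 ± 0.22.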

How the data were processed

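RNA of GFP+ cells sorted from E17.5 lungs was isolated, amplified with Ovation kits and hybridised to Affymetrix mouse arrays by the authors, who processed them with Bioconductor in R. They deposited 1 log2 value per probe set and array. How they were summarised and normalised is not given in the sources, and the log2 scale was read from the range of the values. All 5 arrays form 1 group. Of 45101 probe sets, 64 controls were left out. Of the other 45037, 34945 carried 1 gene symbol, 932 several and 9160 none. All 34 kinesin symbols matched RefSeq by Entrez ID. For each probe set an intercept was fitted in limma 3.58.1 (R 4.3.3), and its mean was tested one-sided against the background level and a level of 5, with Benjamini-Hochberg adjustment over all probe sets and a threshold of 0.05. The fit was tested on simulated data, with the median of all probe set means as the level in place of 7.36. Of 200 probe sets each set 0.25, 0.5 and 1 above that level, 72.5%, 94.5% and 99.5% were called. Of 200 set at the level itself, 4% were. Distances under 0.25, as for Kif18a and Kif3c, can therefore be missed. Precision is limited by how few arrays there are. The members, gene lists, background genes and tests were chosen with earlier results of these data known. Every member is named. Array values are given for mitotic and ciliary kinesins, for the 4 others above background with the largest SD, and for those within 0.5 of the background level; the extremes of Kif5a and Kif5b, and the probe sets described, were chosen after their values were seen. Of the lists of related genes, those named beyond the first few and the exceptions were chosen in the same way. Alternatives changed the probe set, normalisation, test, background genes, cut-off and replicates.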

Additional observations from a re-analysis of the deposited data

Results flagged for a closer look

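In 3 of the 34 kinesins, 1 array stood apart from the other 4 by more than Dixon's 95% critical value for 5 samples. Chance marks about 1 in 20 groups in this way. Kif23 was at 11.26 in replicate 1, against 10.97 to 11.04 on the other arrays. Kif20b was at 8.87 in replicate 1, against 8.38 to 8.49. Kif1c was at 10.91 in replicate 2, against 11.05 to 11.08. These values come from 1 probe set per gene. On the second probe set of Kif20b above background, replicate 1 was at 8.23, against 7.98 to 8.31 on the other arrays. On that of Kif1c, replicate 2 was at 7.85, against 7.28 to 7.97. On that of Kif23, replicates 1 and 2 were the highest, at 9.05 and 8.90.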

How the results depend on the processing

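No paired analysis was possible because all 5 arrays belong to 1 group. Counts were taken as unmoved within 1.5 times the reported count, and the median SD of the kinesins within 1 SD of their SDs. By this measure 75 values stayed and 5 moved. Apart from that of the 7 others, no count could move up, since 1.5 times it reaches its whole group. The number that stayed was thus partly fixed in advance. With the level at the 99th percentile of those genes (10.32), 12 kinesins were above it, with 1 mitotic, 5 transport and 2 other kinesins, beside 30.8% of all genes. With tissue-restricted genes alone (8.87), 5 mitotic, 6 transport and 19 of all kinesins were above the level, beside 49.5% of all genes, and with receptor genes alone (5.43) 29 were, beside 77.4%. Leaving out 1 replicate gave 23 to 26 kinesins, beside 61.0% to 63.8% of all genes. Transport kinesins then numbered 6 to 9, with 6 without replicate 5, beside 61.1% of all genes. Among single genes, 33 distances from the level changed sign. At the 99th percentile they were -1.19 for Kif11, -0.79 for Kif13b, -1.73 for Kif17, -2.80 for Kif18a, -1.99 for Kif18b, -2.49 for Kif1a, -0.05 for Kif20a, -1.80 for Kif20b, -0.17 for Kif22, -0.14 for Kif26b, -0.61 for Kif2c, -2.83 for Kif3c, -1.69 for Kif4 and -2.45 for Kif5c. With tissue-restricted genes alone they were -0.28 for Kif17, -1.35 for Kif18a, -0.54 for Kif18b, -1.04 for Kif1a, -0.34 for Kif20b, -1.38 for Kif3c, -0.24 for Kif4 and -0.99 for Kif5c. With receptor genes alone they were 0.09 for Kif12, 1.58 for Kif21b and 1.41 for Kif5a. With probe sets averaged they were -0.64 for Kif13b, -1.52 for Kif18a, -1.04 for Kif20b and -1.19 for Kif5c. Without probe sets whose names carry a suffix it was 0.04 for Kif21b, and Kif9 and Kif20a had no probe set left. Leaving out 1 replicate gave -0.01 (without replicate 3) to 0.26 for Kif18a and -0.09 (without replicate 3) to 0.26 for Kif3c, which was also negative without replicate 5 (-0.07). The level moved in some other settings too. It was 6.92 with probe sets averaged, 6.97 without suffixed probe sets, and 7.20 to 7.59 with 1 replicate left out. Without suffixed probe sets Kif21b kept the same probe set, so only the level changed there. Apart from these shifts and the one that each choice of background genes makes by construction, the cause was not tested.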
